A study of Mus musculus with 12 samples.

Results

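Unselected (input) RNA from small-intestinal epithelium of 2 mice lacking Kat2a and Kat2b (DKO) was compared with that of 2 control mice. These 4 input libraries were taken by their label from the 12 libraries of the study. The other 8 are pulldowns of double-stranded RNA and entered only 1 alternative fit. All mice were females aged 3 months. DKO mice, whose genotype is given as KAT2A/KAT2B DKO, were injected intraperitoneally with tamoxifen at 100 mg/kg on 4 days. Control mice were injected with the ethanol and corn oil solvent, so gene loss and tamoxifen exposure cannot be told apart. The labels call the samples epithelial cells of the whole intestine, while their extraction protocol has the cells taken from the proximal small intestine, which bears on the regional genes described below. The cells were released with EDTA 2 days after the last injection, which gives a mixture of all epithelial cell types of crypt and villus. The recombinase line, its promoter, the recombined alleles and the strain are not given in the sources used here. The 4 libraries come from 4 animals and are called control 1, control 2, DKO 1 and DKO 2.

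KAT2A and KAT2B are closely related lysine acetyltransferases that serve as alternative catalytic subunits of the SAGA and ATAC coactivator complexes and acetylate histone H3. The intestinal epithelium is renewed by stem cells in the crypts, whose progeny become absorptive enterocytes or secretory goblet, Paneth, enteroendocrine and tuft cells. Enterocytes carry digestive enzymes and transporters on a brush border, and their genes differ between duodenum and ileum and between villus base and tip. In RNA of such a mixture, fewer cells of a type and less RNA per cell cannot be told apart.

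The sequences below show the region just before the start site of 3 genes of programs described below: Cyp2c68 and Cyp3a11, cytochromes P450 that fell, and Hmgcs1, an enzyme of cholesterol synthesis that rose. They are 250 bases each from RefSeq (GRCm38.p6), 5′ to 3′ on the gene's strand, and end at the base before the start site. Cyp2c68 lies at chr19:39741102-39741351 on the minus strand, Cyp3a11 at chr5:145879855-145880104 on the minus strand, and Hmgcs1 at chr13:119690101-119690350 on the plus strand. Capitals mark CAAAGTCCA, an element bound by HNF4 factors, in the first pair, and CACCCCAC, the core of a sterol regulatory element, in Hmgcs1.
Cyp2c68: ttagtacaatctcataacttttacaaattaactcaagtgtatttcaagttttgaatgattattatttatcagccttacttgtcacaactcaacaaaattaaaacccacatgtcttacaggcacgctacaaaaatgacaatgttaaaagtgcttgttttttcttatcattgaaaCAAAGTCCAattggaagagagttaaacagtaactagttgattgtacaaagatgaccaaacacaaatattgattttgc
Cyp3a11: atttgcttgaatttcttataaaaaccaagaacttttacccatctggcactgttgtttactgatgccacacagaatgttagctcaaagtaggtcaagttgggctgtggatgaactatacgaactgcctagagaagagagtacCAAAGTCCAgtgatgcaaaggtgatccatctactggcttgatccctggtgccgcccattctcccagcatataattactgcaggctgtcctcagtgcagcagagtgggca
Hmgcs1: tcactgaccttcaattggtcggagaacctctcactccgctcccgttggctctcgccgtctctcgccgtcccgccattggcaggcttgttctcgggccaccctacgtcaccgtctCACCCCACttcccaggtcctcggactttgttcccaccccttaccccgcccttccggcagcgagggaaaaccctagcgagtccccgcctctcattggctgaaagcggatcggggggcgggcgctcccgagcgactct
Searched on both strands, CAAAGTCCA was present in 0.381% and CACCCCAC in 2.51% of the 27025 RefSeq promoter windows of this length. In Cyp2c68 the element began 77 bases before the start site, in Cyp3a11 109 bases before it and in Hmgcs1 136 bases before it. The 3 genes were chosen for display after their values were seen, and a match in the sequence is not a measured binding site.

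The targeted genes were read first. Kat2b had 359 and 343 counts in control and 118 and 114 counts in DKO, and Kat2a had 222 and 228 counts in control and 84 and 148 in DKO. Both were lower in each DKO library than in either control library, by a log2 fold change of -1.51 ± 0.17 for Kat2b (SE, adjusted p = 6.32e-04) and -0.88 ± 0.23 for Kat2a (adjusted p = 0.0205). Counts cover whole genes, exons left after recombination included. The libraries held 10307281 to 11474107 counts assigned to genes, of which the 10 genes with most counts held 12.1 and 12.9% in control and 18.7 and 17.3% in DKO. Of 15088 genes tested with edgeR, 5421 were called at an adjusted p under 0.05, or 35.9% of those tested (18.8% higher and 17.1% lower in DKO). At least a 4-fold difference was reached by 700 genes called higher and 349 called lower. The median log2 fold change over all genes tested was -9.7e-04. Scaled to library size alone the median moved to -0.13, and the higher genes made up 42.1% of the calls in place of 52.4%. In 73.2% of the genes tested both DKO libraries lay beyond both controls, so separation of the groups is by itself common here. With the pulldown libraries in the same fit 1766 genes passed, all of them among the 5421 and called in the same direction.

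**Figure D1:**
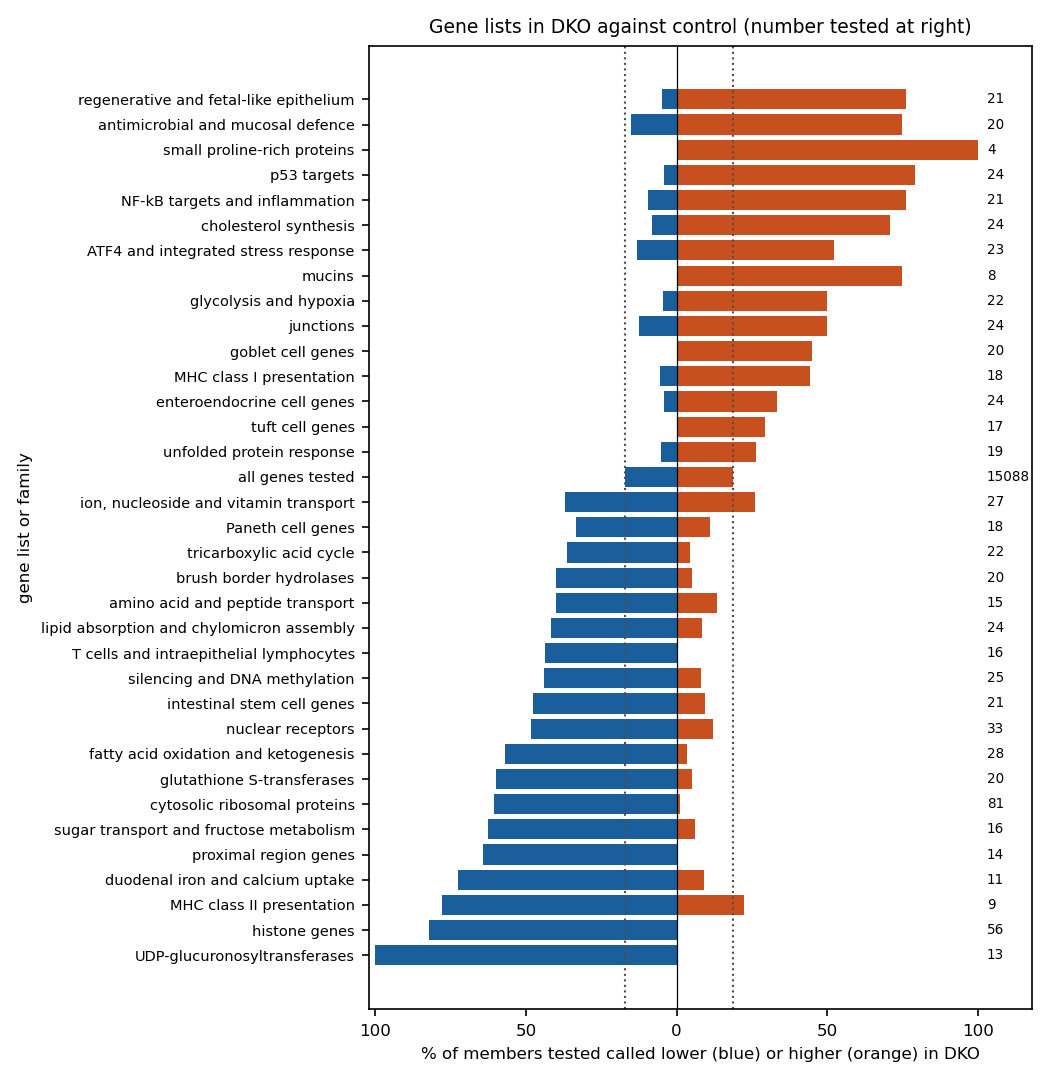
Share of the members tested that were called lower (blue, left) or higher (orange, right) in DKO, for gene lists and families, in percent; the number tested is at the right and dotted lines mark the shares over all 15088 genes tested. All 13 UDP-glucuronosyltransferases tested were lower and all 4 small proline-rich genes tested were higher, against 17.1% and 18.8% of all genes.

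Some digestive enzymes of the brush border fell and others did not pass the test. Of 20 brush border hydrolases tested, 8 fell and 1 rose, where 35.9% of all genes tested were called. The median log2 fold change of the list was -0.09, near that of all genes. Lactase (Lct), which splits milk sugar, changed most: it had 2564 and 3564 CPM (counts per 1000000 counts of the scaled library) in control and 71.2 and 83.1 CPM in DKO. Both DKO values lay far below both controls, a log2 fold change of -5.31 ± 0.24 (adjusted p = 5.32e-05). Sucrase-isomaltase (Sis) had 3816 and 3769 CPM in control and 1591 and 1366 in DKO (-1.36 ± 0.17 on the log2 scale, adjusted p = 0.00116). Angiotensin-converting enzyme (Ace) had 2536 and 3167 CPM in control and 1304 and 1264 in DKO, and the peptidase neprilysin (Mme) had 1237 and 1315 in control and 409 and 472 in DKO. Their log2 fold changes were -1.15 ± 0.18 and -1.53 ± 0.15 (adjusted p = 0.00259 and 4.08e-04). Other hydrolases did not pass the test, and the values of Mgam and Alpi overlapped between groups. Aminopeptidase N (Anpep) had 8992 and 8548 CPM in control and 14945 and 11006 in DKO (adjusted p = 0.103), maltase-glucoamylase (Mgam) had 5901 and 4637 in control and 7253 and 4541 in DKO (adjusted p = 0.667), and intestinal alkaline phosphatase (Alpi) had 2415 and 2736 in control and 2724 and 2125 in DKO (adjusted p = 0.746). Another alkaline phosphatase, Akp3, fell from 1612 and 1975 to 712 and 389.8 CPM (log2 fold change -1.70 ± 0.28, adjusted p = 0.00351). Of 17 genes of microvillus structure, 3 fell and 1 rose, a smaller share called than among all genes. Plastin 1 (Pls1), an actin bundler, had 1345 and 1272 CPM in control and 631 and 517 in DKO (-1.19 ± 0.16, adjusted p = 0.00142), while villin (Vil1), at 2207 and 2192 CPM in control and 1738 and 1385 in DKO, did not pass (adjusted p = 0.0608). DESeq2 called Anpep higher (adjusted p = 0.0134) and Vil1 lower (adjusted p = 0.0246). Genes of the villus tip, where old enterocytes are shed, went the other way: 7 of 15 rose and 1 fell. The EGF receptor (Egfr), which is higher toward the tip, had 40.02 and 37.4 CPM in control and 125 and 74.3 in DKO (1.36 ± 0.23, adjusted p = 0.00388).

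**Figure D2:**
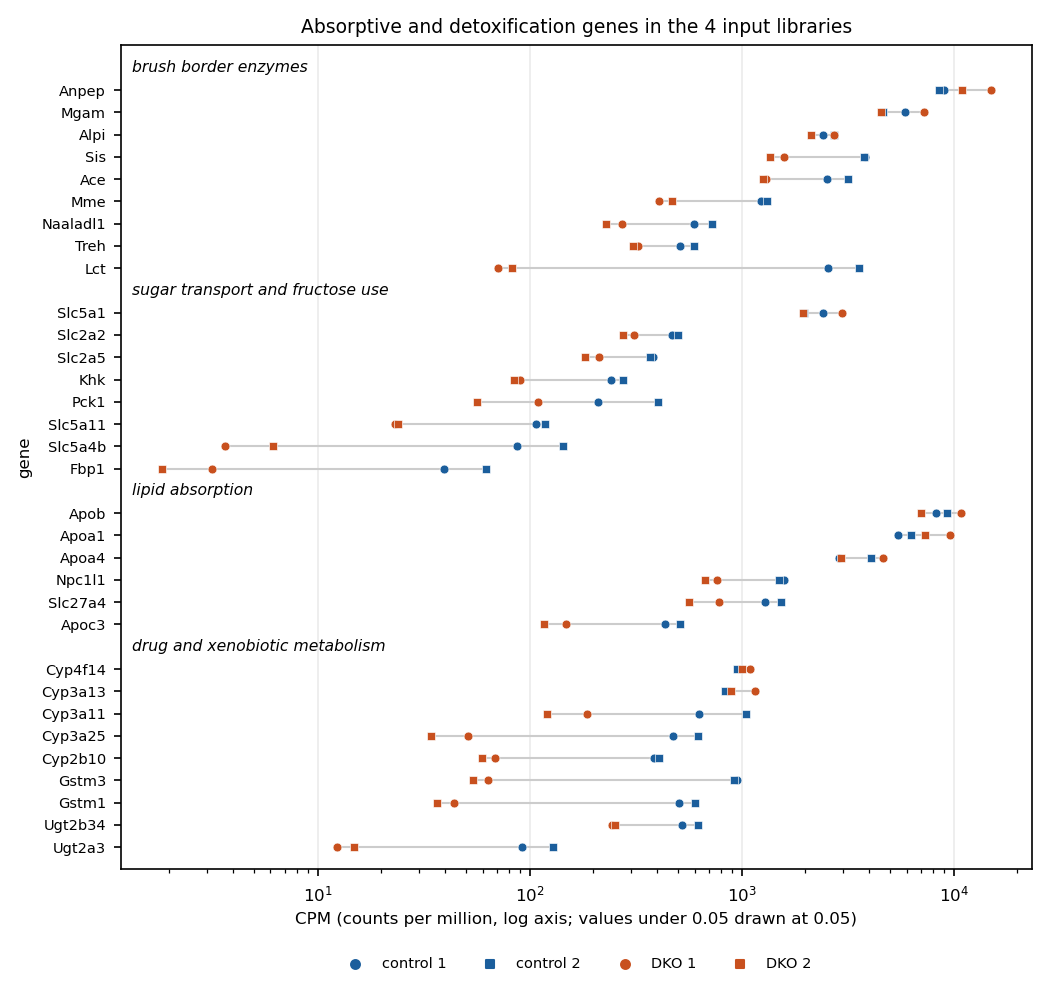
CPM (log axis) of absorptive and detoxification genes in each library (blue control, orange DKO; circles replicate 1, squares replicate 2), grouped by function. Lct, Slc5a4b and Fbp1 were far lower in both DKO libraries, while the values of Mgam, Alpi, Slc5a1, Apob and Apoa4 overlapped between the groups.

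Genes for transport and use of sugars fell, with exceptions. Among 16 genes for sugar transport and fructose metabolism, 10 fell and 1 rose, with a median log2 fold change of -0.87. The sodium-glucose transporter Slc5a1, with 2431 and 1959.9 CPM in control and 2969 and 1948 in DKO, overlapped between groups (adjusted p = 0.621). Its relatives Slc5a4a and Slc5a4b fell to a few CPM: Slc5a4b went from 87.4 and 144 CPM to 3.67 and 6.16 CPM, and Slc5a4a from 62.6 and 65.97 to 1.29 and 2.02. Their log2 fold changes were -4.54 ± 0.32 and -5.25 ± 0.20 (adjusted p = 1.42e-04 and 3.67e-05). The fructose transporter Slc2a5 had 384 and 372 CPM in control and 212 and 184 in DKO, and ketohexokinase (Khk), the first enzyme of fructose breakdown, had 243 and 277 in control and 90.3 and 84.5 in DKO. Both fell, by 0.93 and 1.57 on the log2 scale (adjusted p = 0.00189 and 2.52e-04). Of the gluconeogenic enzymes, fructose-bisphosphatase Fbp1 went from 39.3 and 62.5 to 3.18 and 1.85 CPM and Pck1 from 211 and 404 to 109 and 56.3 CPM (log2 fold changes -4.35 ± 0.32 and -1.90 ± 0.37, adjusted p = 1.68e-04 and 0.00706).

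Transporters of amino acids, ions and lipids also fell in part. Of 15 amino acid and peptide transporters, 6 fell and 2 rose, where 17.1% of all genes tested fell and 18.8% rose. The imino acid transporter Slc6a20a had 264 and 353 CPM in control and 36.3 and 29.8 in DKO (-3.22 ± 0.19, adjusted p = 7.97e-05), and the neutral amino acid transporter Slc43a2 had 1211 and 1232 in control and 414 and 401 in DKO (-1.58 ± 0.14, adjusted p = 2.85e-04). The main apical carrier of neutral amino acids, Slc6a19, was at 811 and 768 CPM in control and 707 and 537 in DKO and did not pass (adjusted p = 0.149). Among 27 ion, nucleoside and vitamin transporters, 7 rose and 10 fell. The sodium-proton exchanger Slc9a3 rose from 306 and 221 to 851 and 677 CPM (1.54 ± 0.20, adjusted p = 0.00127), and the nucleoside carrier Slc28a2 rose from 163 and 147 to 735 and 537 CPM (2.03 ± 0.18, adjusted p = 3.09e-04). The basolateral bicarbonate carrier Slc4a4 fell from 288 and 281 to 86.00 and 67.3 CPM (-1.89 ± 0.15, adjusted p = 2.24e-04). Of 24 genes of lipid absorption, 10 fell and 2 rose. The cholesterol uptake receptor Npc1l1 had 1592 and 1496 CPM in control and 763 and 671 in DKO, and the apolipoprotein Apoc3 had 435 and 510.3 in control and 148 and 117 in DKO. These are log2 fold changes of -1.11 ± 0.15 and -1.84 ± 0.17 (adjusted p = 0.00158 and 3.20e-04). The structural apolipoproteins of chylomicrons were not called: Apob had 8262 and 9351 CPM in control and 10828 and 7017 in DKO, and Apoa4 had 2889.9 and 4063 in control and 4626 and 2952 in DKO (adjusted p = 0.962 and 0.747).

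Genes that mark the proximal intestine fell, and some ileal genes rose. Of 14 proximal genes tested, 9 fell and 0 rose (median log2 fold change -0.77), where 17.1% of all genes tested fell and 18.8% rose. Of 11 genes of duodenal iron and calcium uptake, 8 fell and 1 rose. The vitamin D receptor (Vdr) had 697 and 682 CPM in control and 159 and 205 in DKO (-1.92 ± 0.16, adjusted p = 2.58e-04), and its calcium-binding target S100g had 92.5 and 104 in control and 33.8 and 24.5 in DKO (-1.76 ± 0.17, adjusted p = 4.15e-04). Ferritin heavy chain (Fth1), which stores iron, fell from 3796 and 3886 to 1656 and 1368 CPM (-1.34 ± 0.18, adjusted p = 0.00140). Of 9 genes of ileal bile acid and cubilin uptake, 4 rose and 2 fell, and of 12 distal genes, 4 rose and 4 fell. The ileal bile acid carrier Slc10a2 was at 0.370 and 0.754 CPM in control and 13.5 and 10.6 in DKO (4.38 ± 0.36, adjusted p = 2.32e-04). Fgf15, the ileal hormone that answers bile acids, had no counts in either control and 35 and 22 counts in DKO, a rise of at least 10.2-fold against a floor of 3 counts per library (adjusted p = 0.00199). The bile acid receptor Nr1h4 rose from 45.8 and 46.97 to 82.4 and 71.3 CPM (0.73 ± 0.13, adjusted p = 0.00407). Cubilin (Cubn), an ileal receptor for vitamin B12 bound to intrinsic factor, moved the opposite way, with 231 and 555 CPM in control and 10.1 and 5.72 in DKO (-5.64 ± 0.49, adjusted p = 2.83e-04). Of 25 transcription factors of the gut epithelium, 7 fell and 4 rose, the latter a smaller share than among all genes. Hnf4a was at 1038 and 999 CPM in control and 1192 and 964 in DKO and did not pass (adjusted p = 0.719), while its relative Hnf4g fell from 518 and 539.8 to 315 and 334 CPM (-0.71 ± 0.13, adjusted p = 0.00496). Prdm1, a factor of the suckling-stage intestine, rose from 21.4 and 15.2 to 56.6 and 41.7 CPM (1.42 ± 0.21, adjusted p = 0.00221). Without control replicate 2 the gut factors that fell numbered 3.

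Many detoxification enzymes fell. All 13 UDP-glucuronosyltransferases tested fell (median log2 fold change -1.94), as did 12 of 20 glutathione S-transferases, 23 of 40 cytochromes P450 and 8 of 14 carboxylesterases, against 17.1% of all genes. Those rising in the same families numbered 0, 1, 6 and 2. Gstm3, which couples glutathione to foreign compounds, had 956 and 924 CPM in control and 63.8 and 54.4 in DKO (-3.99 ± 0.16, adjusted p = 3.73e-05), and Gstm1 had 507 and 601 in control and 44.2 and 36.7 in DKO (-3.78 ± 0.17, adjusted p = 5.32e-05). The values of these genes in the DKO libraries lay close to each other and far below control. Cyp3a25 had 474 and 625 CPM in control and 51.3 and 34.4 in DKO, Cyp2b10 had 387 and 406 CPM in control and 68.9 and 59.8 in DKO, and Cyp3a11 had 631 and 1054 in control and 187 and 121 in DKO. Their log2 fold changes were -3.68 ± 0.24, -2.62 ± 0.14 and -2.46 ± 0.30 (adjusted p = 1.07e-04, 6.18e-05 and 9.35e-04). Cyp2c68 had 673 and 974 counts in control and 0 and 0 in DKO, a fall of at least 256-fold. Its transcript is 98.03% identical to Cyp2c40 over 1724 bases, so the separate counts of the pair are uncertain. Other members did not follow: Cyp3a13, at 861 and 832 CPM in control and 1155 and 894 in DKO, did not pass (adjusted p = 0.236). Cyp4b1 rose from 92.3 and 116 to 314 and 269 CPM (1.48 ± 0.16, adjusted p = 5.76e-04). The carboxylesterase Ces2b fell from 12.02 and 42.4 to 1.59 and 2.46 CPM (-3.73 ± 0.63, adjusted p = 0.00370). Ugt2a3, a glucuronosyltransferase of bile acids, had 91.8 and 129 CPM in control and 12.4 and 14.8 in DKO (-3.02 ± 0.20, adjusted p = 1.15e-04). The Ugt1a members share their last exons, so their separate counts are uncertain.

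Nuclear receptors, ligand-activated factors that control many of these enzymes, fell in 16 of 33 cases and rose in 4 (median log2 fold change -0.48). The retinoid partner Rxra had 242 and 251 CPM in control and 109 and 116 in DKO, the glucocorticoid receptor Nr3c1 190.0 and 189.5 CPM in control and 86.99 and 81.4 in DKO, and the thyroid hormone receptor Thra 149.7 and 149 in control and 68.03 and 61.5 in DKO. These log2 fold changes were -1.13 ± 0.12, -1.17 ± 0.12 and -1.21 ± 0.12 (adjusted p = 5.63e-04, 4.66e-04 and 4.47e-04), with little spread inside either genotype. Ppard was at 214 and 174 CPM in control and 242 and 279 in DKO and did not pass (adjusted p = 0.0613). Of 15 genes of retinoid metabolism, 8 fell and 5 rose. Aldh1a1, which makes retinoic acid, had 319.8 and 540.1 CPM in control and 90.8 and 90.6 in DKO (-2.25 ± 0.24, adjusted p = 5.78e-04).

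**Figure D3:**
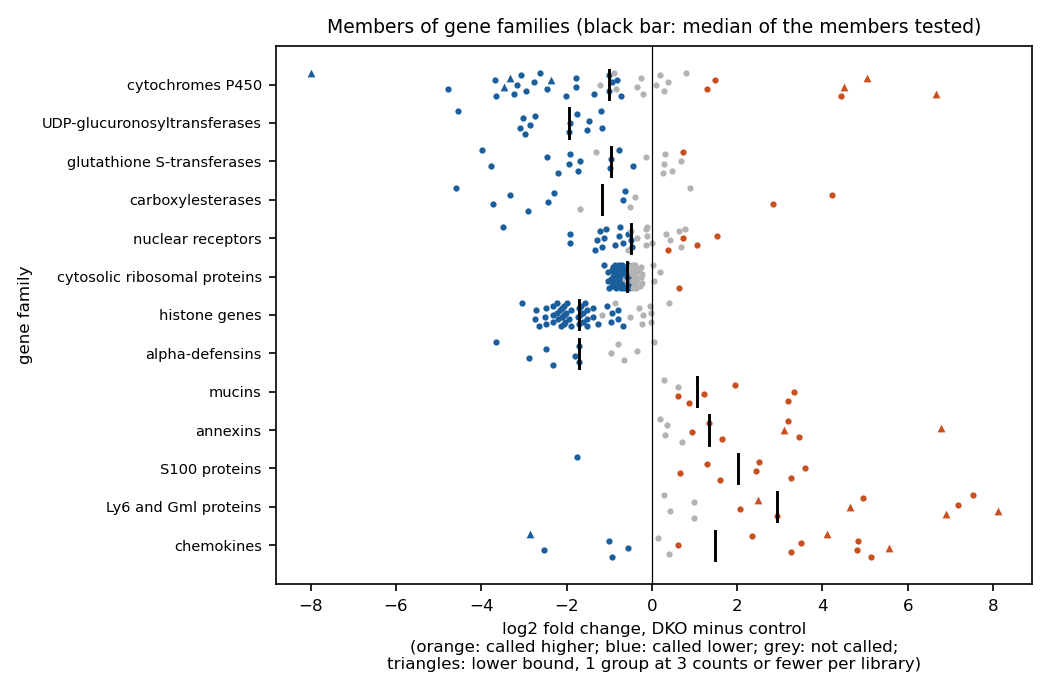
log2 fold change (DKO minus control) of each tested member of 13 gene families; colour marks the call, triangles mark genes drawn at their lower bound because 1 group had 3 counts or fewer in each library, and black bars are medians. Most detoxification enzymes, histone genes and alpha-defensins lie left of 0, while most annexins, S100 proteins, Ly6 and Gml proteins and chemokines lie right of it.

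Many genes of fatty acid oxidation fell while several of glycolysis rose. Of 28 genes of fatty acid oxidation and ketogenesis, 16 fell and 1 rose (median -0.49). Hadh, a dehydrogenase of the oxidation cycle, had 532 and 629.9 CPM in control and 187 and 194 in DKO (-1.61 ± 0.14, adjusted p = 3.02e-04). The exception was the long-chain dehydrogenase Acadl, which rose from 108 and 117 to 522 and 417 CPM (2.06 ± 0.16, adjusted p = 1.82e-04). Of 22 genes of the tricarboxylic acid cycle 8 fell, of 45 complex I subunits and assembly factors 9, and of 18 ATP synthase genes 8. The complex I count is little above the 17.1% of all genes tested that fell. Fumarase (Fh1) had 71.5 and 67.5 CPM in control and 36.1 and 44.4 in DKO (-0.79 ± 0.14, adjusted p = 0.00433). Of 22 glycolysis and hypoxia genes, 11 rose and 1 fell. The hexokinases, which start glycolysis, rose: Hk1 went from 10.5 and 9.46 to 125 and 100.3 CPM and Hk2 from 30.7 and 21.01 to 253 and 189 CPM. Their log2 fold changes were 3.49 ± 0.16 and 3.10 ± 0.23 (adjusted p = 5.32e-05 and 1.59e-04). Phosphoglycerate kinase (Pgk1) rose from 180.4 and 168 to 332 and 318 CPM (0.90 ± 0.12, adjusted p = 0.00160), and lactate dehydrogenase (Ldha), at 793 and 723 CPM in control and 939 and 881 in DKO, did not pass (adjusted p = 0.181). Leaving out control replicate 2 lowered the genes that fell to 8 for fatty acid oxidation, 4 for the tricarboxylic acid cycle, 2 for complex I and 2 for ATP synthase. Leaving out DKO replicate 2 raised complex I to 19.

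Cholesterol synthesis rose as a group. Of 24 genes of the pathway and its regulators, 17 rose and 2 fell (median log2 fold change 1.32). Hmgcs1, which condenses acetyl units for the pathway, had 78.1 and 71.5 CPM in control and 252 and 153 in DKO (1.44 ± 0.23, adjusted p = 0.00283). Squalene epoxidase (Sqle) had 34.8 and 26.2 CPM in control and 124 and 91.5 in DKO, and the sterol oxidase Msmo1 36.1 and 39.8 in control and 195 and 120.5 in DKO. In each of the 3 genes DKO 1 was the higher of the DKO libraries, and both were above the controls (for Sqle 1.82 ± 0.20, for Msmo1 2.06 ± 0.23, adjusted p = 6.05e-04 and 6.55e-04). The sterol-responsive factor Srebf2 rose too, from 155 and 145 to 369.8 and 265 CPM (1.08 ± 0.18, adjusted p = 0.00330). Stard4, which moves cholesterol inside the cell, fell from 143 and 159 to 72.9 and 66.6 CPM (-1.11 ± 0.13, adjusted p = 7.26e-04).

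The secretory lineages moved in different directions. Of 20 goblet cell genes 9 rose and 0 fell. The gel-forming mucin Muc2 had 1962 and 1982 CPM in control and 3358 and 2673 in DKO (0.61 ± 0.18, adjusted p = 0.0338), a call that was lost without either control (adjusted p = 0.242 without control replicate 1 and 0.222 without control replicate 2). Galnt3, which starts mucin O-glycosylation, had 24.5 and 21.8 CPM in control and 54.7 and 45.5 in DKO (1.11 ± 0.14, adjusted p = 0.00125). The goblet proteins Fcgbp, at 7397 and 8573 CPM in control and 7631 and 5957 in DKO, and Tff3, at 298 and 301 CPM in control and 401 and 365 in DKO, did not pass (adjusted p = 0.445 and 0.0637). Retnlb, a bactericidal goblet product, was at 0.555 and 0.251 CPM in control and 16.9 and 77.9 in DKO (6.87 ± 0.96, adjusted p = 0.00172), with the DKO libraries far apart. Of 8 mucins 6 rose, among them the membrane mucin Muc3, which went from 987 and 738 to 3855 and 2795 CPM (1.95 ± 0.23, adjusted p = 8.80e-04). Of 18 Paneth cell genes, 6 fell and 2 rose. Lysozyme (Lyz1) had 1469.8 and 1551 CPM in control and 494 and 814 in DKO (-1.21 ± 0.24, adjusted p = 0.00682). Of 12 alpha-defensins, their antimicrobial peptides, 7 fell; Defa29 went from 122 and 117 to 9.43 and 9.59 CPM (-3.65 ± 0.13, adjusted p = 3.67e-05) and Defa21 from 145 and 134 to 25.6 and 24.7 (-2.47 ± 0.12, adjusted p = 5.69e-05). Defa24, at 980.3 and 1332 CPM in control and 505 and 962 in DKO, did not pass (adjusted p = 0.126) but was called lower without control replicate 1 (0.0278) or DKO replicate 2 (0.00523). Alpha-defensin copies are so alike that their counts are uncertain. The median Paneth deviation from control was -1.20 in DKO 1 and -0.23 in DKO 2. Without DKO replicate 2, 13 Paneth genes fell, and without either control 5 goblet genes rose; without control replicate 2, 3 mucins did.

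Some enteroendocrine and tuft genes rose, without a clear excess of calls over all genes, and many stem cell genes fell. Of 24 enteroendocrine genes 8 rose and 1 fell, a share called near the 35.9% of all genes. Carboxypeptidase E (Cpe), which trims hormone precursors, had 8.69 and 9.54 CPM in control and 74.8 and 102 in DKO (3.28 ± 0.19, adjusted p = 6.77e-05), and the serotonin enzyme Tph1 had 14.1 and 18.3 in control and 51.2 and 31.4 in DKO (1.35 ± 0.25, adjusted p = 0.00536). Proglucagon (Gcg) fell from 14.8 and 15.1 to 5.36 and 4.14 CPM (-1.66 ± 0.21, adjusted p = 0.00125), and the general marker Chga, at 29.4 and 36.7 CPM in control and 42.01 and 30.1 in DKO, did not pass (adjusted p = 0.645). Of 17 tuft genes 5 rose and 0 fell, a smaller share called than among all genes. The tuft channel Trpm5 rose from 19.97 and 21.8 to 98.4 and 65.7 CPM (1.97 ± 0.20, adjusted p = 4.83e-04) and Dclk1 was at 17.2 and 20.8 CPM in control and 19.1 and 24.4 in DKO (adjusted p = 0.437). Of 21 stem cell genes 10 fell and 2 rose. Olfm4, a crypt-base product, had 388 and 383 CPM in control and 30.3 and 63.1 in DKO (-3.04 ± 0.31, adjusted p = 4.83e-04), and Smoc2 had 37.6 and 38.6 in control and 4.67 and 7.57 in DKO (-2.63 ± 0.22, adjusted p = 2.52e-04). Lgr5, the receptor that defines these cells, fell from 13.9 and 15.2 to 3.28 and 4.93 CPM (-1.82 ± 0.25, adjusted p = 0.00149). The Wnt target Axin2 was at 75.98 and 73.1 CPM in control and 62.6 and 74.3 in DKO and did not pass (adjusted p = 0.496), and Cd44 rose from 28.8 and 23.8 to 97.8 and 89.6 CPM (1.83 ± 0.14, adjusted p = 1.86e-04). Without DKO replicate 1, 4 enteroendocrine genes rose, and without control replicate 1, 5 enteroendocrine and 3 tuft genes did.

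Genes known from repairing and fetal-like epithelium rose. Of 21 such genes 16 rose and 1 fell, with a median log2 fold change of 2.98. Ly6a, the stem cell antigen Sca-1, had 1.57 and 0.754 CPM in control and 169 and 164 in DKO (7.17 ± 0.24, adjusted p = 3.67e-05). Amphiregulin (Areg), a ligand of the EGF receptor, had 8.23 and 7.12 CPM in control and 335 and 219 in DKO (5.17 ± 0.25, adjusted p = 5.32e-05). The alarmin Il33 rose from 26.3 and 25.5 to 98.9 and 124 CPM (2.11 ± 0.15, adjusted p = 1.42e-04). In all 3 genes the DKO libraries lay well clear of the controls. Of 11 annexins, which bind membranes with calcium, 7 rose and 0 fell, and of 8 S100 calcium-binding proteins 7 rose and 1 fell. Anxa10, a gene of stomach epithelium, had no counts in control and 383 and 229 in DKO, a rise of at least 110.1-fold (adjusted p = 2.93e-04). S100a11 had 16.6 and 11.9 CPM in control and 189.7 and 151 in DKO (3.58 ± 0.20, adjusted p = 6.75e-05). The 4 small proline-rich genes tested, which in skin build the cornified envelope, all rose; Sprr2a3 went from 97.2 and 46.5 to 1015 and 1096 CPM (3.88 ± 0.33, adjusted p = 2.80e-04), with near-identical copies that can take each other's reads. Of 12 keratins 7 rose; Krt18 went from 99.2 and 110.0 to 274 and 249 CPM (1.32 ± 0.13, adjusted p = 4.20e-04), while the enterocyte keratin Krt20, at 1374 and 1509.6 CPM in control and 1970.4 and 1652 in DKO, did not pass (adjusted p = 0.160). Of 24 junction genes 12 rose and 3 fell. The pore-forming claudin Cldn2 rose from 73.9 and 65.6 to 316 and 340.2 CPM and Cldn15 fell from 419 and 425 to 143 and 185 CPM (2.23 ± 0.13 and -1.36 ± 0.16, adjusted p = 8.20e-05 and 7.69e-04).

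Several of the largest rises were neighbours on chromosome 15. All 10 genes tested between 74747852 and 75048830 (GRCm38) rose: in order Lynx1, Ly6d, Gml, Gml2, Cyp11b1, Cyp11b2, 2010109I03Rik, Ly6e, Ly6a and Ly6c1. Ly6 and Gml genes encode small membrane-anchored proteins with a shared fold, and Cyp11b1 and Cyp11b2 encode the last enzymes of glucocorticoid and aldosterone synthesis. The stretch was chosen after its values were seen. Gml had 0.739 and 0.335 CPM in control and 128 and 72.8 in DKO (7.54 ± 0.43, adjusted p = 6.75e-05), and Ly6e had 114 and 96.4 in control and 807 and 802 in DKO (2.93 ± 0.15, adjusted p = 5.70e-05). Cyp11b1 had 1 and 0 counts in control and 341 and 221 in DKO, a rise of at least 101-fold, and Cyp11b2 had 2 and 0 counts in control and 84 and 42 in DKO, a rise of at least 22.8-fold. Ly6c1 had no counts in control and 72 and 70 in DKO, a rise of at least 25.2-fold. DKO 1 was the higher DKO library for each gene of the stretch. Cyp11b1 and Gml2 overlap by 285 exon bases, and without strand in the counts reads of that part cannot be assigned to either. Of the 13 Ly6 and Gml genes tested genome-wide 9 rose and 0 fell.

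**Figure D4:**
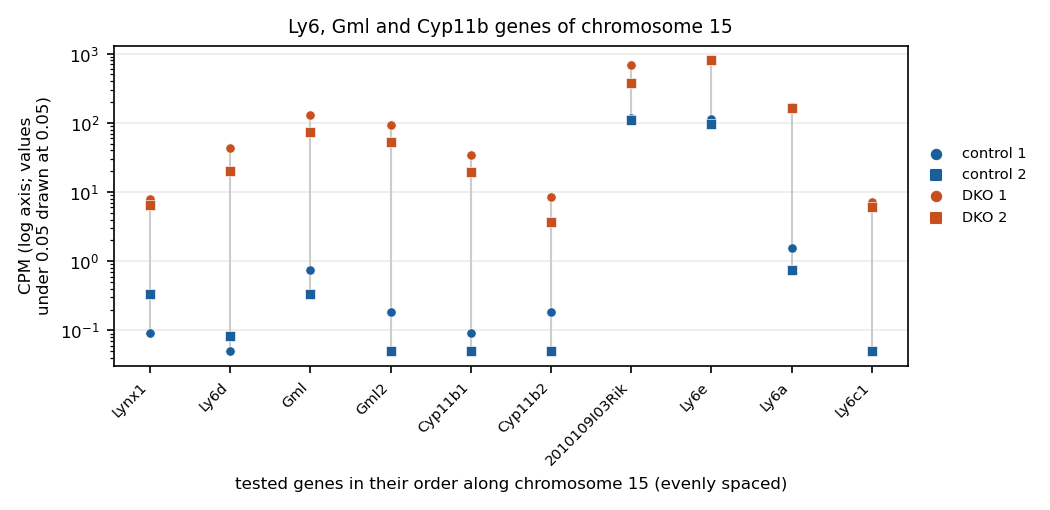
CPM (log axis) of the 10 tested genes of the chromosome 15 stretch in their order along the chromosome, in each library (blue control, orange DKO). Every gene is higher in both DKO libraries; only 2010109I03Rik and Ly6e exceed 2 CPM in the controls.

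Mucosal defence rose strongly. Of 20 antimicrobial and defence genes 15 rose and 3 fell (median log2 fold change 2.53). The bactericidal lectin Reg3g had 3231 and 678 CPM in control and 15706 and 13692 in DKO, and Reg3b had 4959.9 and 1469 in control and 15862 and 13453 in DKO. The controls differed from each other more than the DKO libraries did, with control 1 the higher, and both DKO libraries were above it (2.91 ± 0.64 and 2.19 ± 0.51, adjusted p = 0.0109 and 0.0139). The oxidase Duox2, which makes hydrogen peroxide at the surface, had 168 and 62.9 CPM in control and 1391 and 1282 in DKO, and its maturation factor Duoxa2 had 11.5 and 3.93 in control and 266 and 154 in DKO. These were log2 fold changes of 3.53 ± 0.42 and 4.78 ± 0.47 (adjusted p = 8.80e-04 and 4.08e-04). Nitric oxide synthase Nos2 rose from 112 and 35.5 to 747 and 462 CPM (3.03 ± 0.50, adjusted p = 0.00349), and in it too control 1 was the higher control. Fut2, which adds fucose to surface glycans, had 3.33 and 2.01 CPM in control and 471 and 662 in DKO (7.74 ± 0.30, adjusted p = 3.67e-05). Lypd8, a protein that keeps flagellated bacteria off the epithelium, rose from 2169 and 1456 to 8704 and 6548 CPM (2.07 ± 0.26, adjusted p = 0.00117). The polymeric immunoglobulin receptor Pigr, which carries IgA into the lumen, moved the other way, from 6600.1 and 6436 to 2065 and 2172 CPM (-1.62 ± 0.18, adjusted p = 6.82e-04). Reg1 and Reg3a fell, from 627 and 634 to 289 and 318 CPM and from 109.5 and 207 to 47.1 and 53.1 CPM (-1.06 ± 0.13 and -1.66 ± 0.28, adjusted p = 0.00106 and 0.00356).

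**Figure D5:**
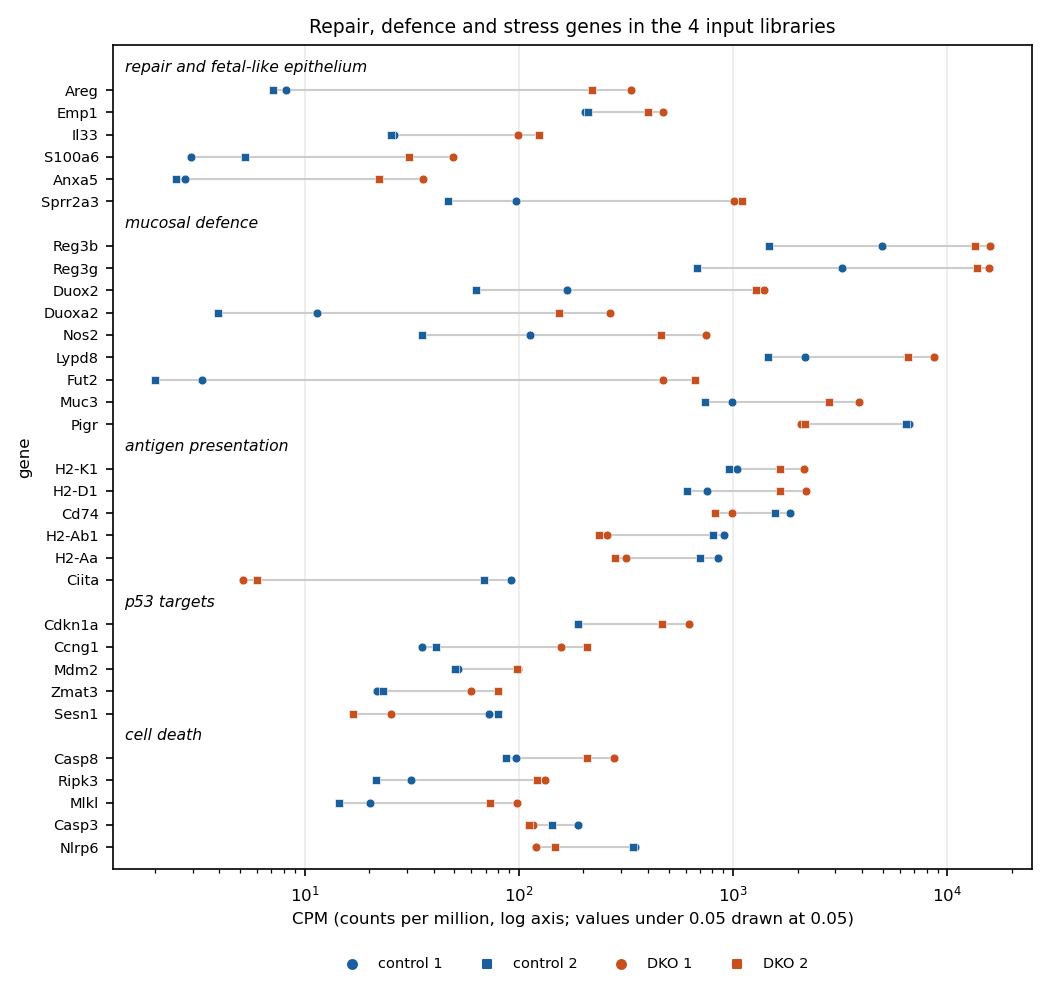
CPM (log axis) of repair, defence, antigen presentation, p53 target and cell death genes in each library (blue control, orange DKO; circles replicate 1, squares replicate 2). Reg3b, Reg3g, Duox2 and Nos2 are higher in control 1 than in control 2, and both DKO libraries are above control 1.

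Inflammatory mediators rose and antigen presentation divided by class. Of 21 NF-kB targets 16 rose and 2 fell (median 1.28). The feedback inhibitor Tnfaip3 had 38.9 and 36.3 CPM in control and 145 and 115 in DKO (1.79 ± 0.15, adjusted p = 2.56e-04). Of 16 chemokines 9 rose and 5 fell. Ccl20, which draws lymphocytes and dendritic cells, had 6.10 and 3.43 CPM in control and 146 and 119 in DKO (4.81 ± 0.25, adjusted p = 6.18e-05), while Ccl6 fell from 99.7 and 100.0 to 12.4 and 21.9 CPM (-2.53 ± 0.24, adjusted p = 3.52e-04). Of 22 genes of the TNF and TNF receptor superfamilies 12 rose and 3 fell. The TNF receptor Tnfrsf1b rose from 8.32 and 8.96 to 50.5 and 27.4 CPM (2.17 ± 0.29, adjusted p = 0.00143), and Tnfrsf14 fell from 32.7 and 28.05 to 15.3 and 15.1 CPM (-0.997 ± 0.15, adjusted p = 0.00234). Of 18 MHC class I genes 8 rose and 1 fell. H2-D1 had 757 and 607 CPM in control and 2199.8 and 1658 in DKO (1.5002 ± 0.20, adjusted p = 0.00141). Of 9 MHC class II genes, which enterocytes and leukocytes both express, 7 fell and 2 rose (median -1.48). Ciita, the master regulator of class II genes, had 92.2 and 69.2 CPM in control and 5.16 and 5.98 in DKO (-3.85 ± 0.19, adjusted p = 5.69e-05). The class II chain H2-Ab1 had 905 and 803 CPM in control and 259 and 236 in DKO (-1.79 ± 0.14, adjusted p = 2.23e-04), and the protease Ctss, which trims their invariant chain, rose from 87.4 and 79.8 to 222 and 202 CPM (1.34 ± 0.13, adjusted p = 3.68e-04). The part of leukocytes, whose markers are given below, in the class II values was not tested.

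Stress programs differed in how many members moved. Of 24 p53 targets 19 rose and 1 fell (median log2 fold change 1.401). The cell cycle inhibitor Cdkn1a had 188 and 189 CPM in control and 625 and 467 in DKO (1.53 ± 0.17, adjusted p = 6.26e-04). Ccng1 rose from 35.5 and 41.2 to 157 and 209 CPM (2.25 ± 0.17, adjusted p = 1.86e-04) and the p53 ligase Mdm2 from 51.9 and 50.6 to 98.6 and 97.8 CPM (0.94 ± 0.11, adjusted p = 9.43e-04). The exception was Sesn1, which fell from 72.5 and 79.5 to 25.2 and 16.8 CPM (-1.86 ± 0.19, adjusted p = 4.93e-04). Of 23 targets of ATF4, the factor of the integrated stress response, 12 rose and 3 fell. Sesn2 had 15.5 and 14.7 CPM in control and 37.3 and 38.3 in DKO (1.32 ± 0.13, adjusted p = 4.56e-04), whereas Atf4 itself, at 114 and 99.3 CPM in control and 136 and 124 in DKO, did not pass (adjusted p = 0.124). Of 19 genes of the unfolded protein response 5 rose and 1 fell, a smaller share called than among all genes. The chaperone Hspa5 had 248 and 293 CPM in control and 365 and 378 in DKO (0.45 ± 0.14, adjusted p = 0.0364). Hspa5 lost its call without either control (adjusted p = 0.380 without control replicate 1 and 0.107 without control replicate 2) and when scaled to library size alone (0.100). Of this response 0 genes rose without control replicate 1 and 2 without control replicate 2. Of 19 NRF2 targets 8 rose and 5 fell; the glutathione peroxidase Gpx2 rose from 346 and 161 to 592 and 945 CPM, and catalase (Cat) fell from 405 and 593 to 111 and 103 CPM (1.60 ± 0.36 and -2.23 ± 0.20, adjusted p = 0.0124 and 3.06e-04). Of 24 genes of regulated cell death 9 rose and 7 fell. The necroptosis kinase Ripk3 rose from 31.3 and 21.5 to 132 and 122 CPM and its substrate Mlkl from 20.2 and 14.5 to 98.4 and 73.6 CPM (2.26 ± 0.19 and 2.31 ± 0.21, adjusted p = 2.42e-04 and 3.04e-04). Casp8 rose from 96.8 and 87.2 to 277 and 208 CPM and Casp6 fell from 182 and 183 to 92.7 and 104 CPM (1.396 ± 0.17 and -0.90 ± 0.12, adjusted p = 8.80e-04 and 0.00157). The inflammasome sensor Nlrp6 fell from 347 and 343 to 121 and 148 CPM (-1.36 ± 0.14, adjusted p = 5.30e-04), and gasdermin D (Gsdmd), which forms the pores of pyroptosis, did not pass at 260.2 and 262 CPM in control and 303 and 275 in DKO (adjusted p = 0.395).

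Many ribosomal protein, histone and silencing genes fell, where 17.1% of all genes tested fell and 18.8% rose. Of 81 cytosolic ribosomal protein genes 49 fell and 1 rose, by modest amounts (median log2 fold change -0.59). Rpl3 had 305 and 289 CPM in control and 111 and 164 in DKO (-1.11 ± 0.19, adjusted p = 0.00396). DKO 1 was the lower in this family, whose median deviation from control was -0.85 in DKO 1 and -0.40 in DKO 2. Without DKO replicate 2, 76 of these genes fell. Of 56 histone genes 46 fell and 0 rose (median -1.70). The cluster gene Hist1h1d, a linker histone, had 139 and 116 CPM in control and 29.3 and 47.2 in DKO (-1.73 ± 0.22, adjusted p = 0.00119). The replacement histone H3f3b, at 267 and 261 CPM in control and 272 and 247 in DKO, did not pass (adjusted p = 0.882). Its values do not stand for the other replacement histones. Many cluster histones are near-identical, so their separate counts are uncertain. Of 25 genes of silencing and DNA methylation 11 fell and 2 rose. The maintenance methyltransferase Dnmt1 had 78.3 and 71.00 CPM in control and 28.7 and 40.03 in DKO, its partner Uhrf1 41.6 and 38.5 CPM in control and 10.6 and 15.5 in DKO, and the corepressor Trim28 90.1 and 94.7 in control and 40.8 and 51.03 in DKO. Their log2 fold changes were -1.12 ± 0.17, -1.61 ± 0.19 and -1.01 ± 0.14 (adjusted p = 0.00248, 8.63e-04 and 0.00175). Proliferation genes moved with these lists: 24 of 26 fell. The part of those lower levels in the histone, Dnmt1 and Uhrf1 values was not tested. Of 26 other lysine acetyltransferases and deacetylases 6 fell and 2 rose. Both this group and the SAGA and ATAC subunits below had a smaller share called than the 35.9% of all genes. Hdac11 fell from 22.1 and 23.3 to 3.67 and 4.31 CPM (-2.50 ± 0.19, adjusted p = 1.86e-04). The acetyltransferase Ep300, at 274 and 269 CPM in control and 329 and 294 in DKO, did not pass (adjusted p = 0.259). Without DKO replicate 2 the genes of this group that fell numbered 10. Among 25 SAGA and ATAC subunits 3 fell, Kat2a and Kat2b included, and 3 rose, none of them without either control.

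Single genes outside these lists with at least 20 CPM in the higher group also moved far. Rasd1, a small GTPase induced by glucocorticoids, had 1.66 and 1.34 CPM in control and 248 and 96.8 in DKO (6.84 ± 0.54, adjusted p = 2.12e-04), and tyrosine aminotransferase (Tat), a liver enzyme induced by the same hormones, had 1.11 and 0.0837 CPM in control and 33.3 and 31.5 in DKO (5.79 ± 0.48, adjusted p = 2.46e-04). Complement component C3 rose from 2.77 and 6.11 to 447 and 217 CPM (6.21 ± 0.47, adjusted p = 1.82e-04). In Rasd1 and C3 DKO 1 was more than 2-fold above DKO 2, and both were above the controls. Atg9b, of the autophagy machinery, rose from 0.277 and 0.335 to 33.5 and 26.04 CPM (6.54 ± 0.31, adjusted p = 5.32e-05). The nuclear noncoding RNA Malat1 rose from 2837 and 2899 to 7381 and 5398 CPM (1.16 ± 0.21, adjusted p = 0.00559). Selenoprotein P (Selenop), a carrier of selenium, fell from 2428 and 2843 to 519 and 446 CPM (-2.45 ± 0.18, adjusted p = 1.57e-04). Vwa1, a matrix protein, fell from 20.5 and 28.6 to 0.894 and 1.67 CPM (-4.23 ± 0.32, adjusted p = 1.82e-04).

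Markers of other cells were checked because EDTA fractions can carry them. Beside the counts below stand the 35.9% of all genes tested that were called (18.8% higher and 17.1% lower). Of 10 epithelial markers 2 rose and 0 fell, and Epcam, at 845 and 849.8 CPM in control and 720.2 and 608 in DKO, did not pass (adjusted p = 0.100). Of 16 genes of T cells and intraepithelial lymphocytes tested 7 fell and 0 rose. Cd3e, a chain of the T cell receptor complex, had 13.6 and 14.9 CPM in control and 6.95 and 7.57 in DKO (-0.97 ± 0.19, adjusted p = 0.00682). The summed level of that list was 217 and 227 CPM in control and 151 and 136 CPM in DKO. Without control replicate 2, 3 of them fell. Of 9 myeloid genes tested 4 rose and 2 fell, at a summed level of 21.9 and 21.8 CPM in control and 47.2 and 30.6 CPM in DKO; neither of those that fell did so without either control. The macrophage receptor Mrc1 rose from 0.647 and 0.670 to 13.3 and 8.97 CPM (4.05 ± 0.35, adjusted p = 2.85e-04), while the neutrophil gene Mpo had 0 counts in all 4 libraries. Of 9 endothelial genes tested 2 rose and 0 fell, a smaller share called than among all genes. The summed level of the 9 was 33.3 and 37.8 CPM in control and 70.7 and 50.6 CPM in DKO. Tie1, with 0 and 0 counts in the controls, reached 152 and 97 counts in DKO 1 and DKO 2 and was thus higher by at least 44.7-fold, and the lymphatic marker Lyve1 rose from 3.60 and 3.10 to 27.5 and 15.7 CPM (2.69 ± 0.31, adjusted p = 8.14e-04). The higher summed level in DKO rests on these 2 genes, since the other endothelial genes tested were not called and moved in both directions. The defining vessel genes Cdh5 and Kdr had at most 1 count in any of the 4 libraries. Of 4 B and plasma cell genes tested 0 were called, at a summed level of 13.3 and 19.8 CPM in control and 53.7 and 22.8 CPM in DKO, with DKO 1 the highest. Igha was at 7.12 and 12.4 CPM in control and 33.3 and 13.99 in DKO (adjusted p = 0.05005); DESeq2 called it higher (adjusted p = 0.00714), as did the fits without control replicate 1, control replicate 2 or DKO replicate 2 (adjusted p = 0.0331, 4.62e-05 and 0.00425). Of 7 fibroblast and matrix genes tested 2 rose and 1 fell, at a summed level of 17.5 and 29.6 CPM in control and 27.4 and 39.5 CPM in DKO. Fibronectin (Fn1) rose from 0.739 and 2.93 to 9.04 and 27.2 CPM (3.28 ± 0.66, adjusted p = 0.00758), and the higher summed level in DKO rests on it. The matrix gene that fell had 8.69 and 13.2 CPM in control and 0 and 0.352 in DKO. The type I collagen genes were not called, and the fibroblast gene Postn had 0 counts in all 4 libraries. The part of these cells in the results above was not tested.

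The fit with all 12 libraries kept part of each list. It called 12 repair genes, 13 p53 targets, 10 defence genes and 5 cholesterol genes higher. It called 37 histone genes, 15 cytochromes P450, 9 UDP-glucuronosyltransferases, 10 genes of the wider drug metabolism list, 5 sugar genes and 3 ribosomal protein genes lower. In the 4-library fit 21 of the 34 genes of that wider list fell. Of the 147 genes named here or in the closing observations as called, 54 did not pass in that fit and none changed direction. Those that did not pass, with adjusted p from 0.0558 to 0.686, were Kat2a, Sis, Ace, Mme, Akp3, Pls1, Egfr, Slc2a5, Pck1, Slc43a2, Slc9a3, Npc1l1, Fth1, Nr1h4, Hnf4g, Cyp3a11, Cyp4b1, Rxra, Nr3c1, Thra, Fh1, Pgk1, Hmgcs1, Sqle, Msmo1, Srebf2, Stard4, Muc2, Lyz1, Reg3g, Reg3b, Lypd8, Pigr, Reg1, Reg3a, Tnfrsf1b, Tnfrsf14, H2-D1, H2-Ab1, Ctss, Cdkn1a, Mdm2, Hspa5, Gpx2, Casp6, Rpl3, Trim28, Malat1, Cd3e, Fn1, Ctsh, Itgav, Il4ra and Hes1. Exons of Duoxa2, Fgf15, Apoa4, Hdac11, Slc6a20a, Vwa1, Dbp, Selenop and Hmgcs1 overlap other annotated genes over at least 10% of their length, and Cyp2c68, Defa21, Defa24, Defa29, Duoxa2, Gstm1, Gstm3, Ly6c1, Pgk1, Rpl3, S100a11, Sprr2a3 and Uhrf1 have a near-identical copy or pseudogene over at least 40% of the transcript, so counts of these genes are less certain.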

How the data were processed

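Whole-gene counts of 4 input RNA libraries were used as the authors deposited them; rows that name no gene (25.1 to 27.0% of reads for no annotated feature) were left out. Per the labels' protocols, RNA was taken from the lysate in Trizol, ribosomal RNA was depleted, and libraries carried molecular identifiers and were sequenced as 2 x 150 bp. The submitters' processing notes name FastQC, STAR 2.7.10b, SAMtools 1.17, UMI-tools 1.1.4, HTSeq 2.0.2, DESeq2 1.40.1, edgeR 3.42.2, deepTools 3.5.2 and the builds mm10 and GRCm38.p4. The annotation release and whether the counts were collapsed by identifier are not given in the sources used here. The counts ignore strand, so overlapping and antisense genes cannot be separated, and near-identical copies are uncertain.

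DKO was compared with control by edgeR 4.0.16 in R 4.3.3 (TMM scaling, quasi-likelihood test, Benjamini-Hochberg adjustment over all genes tested) after a filter at a minimum count of 10, and a gene was called at an adjusted p under 0.05. Where no other test is named, adjusted p-values are those of this fit, and ± is the standard error of the log2 fold change. With 2 animals a group the fit has 2 residual degrees of freedom. CPM values are counts per 1000000 of TMM-scaled library size, and a gene at 3 counts or fewer in each library of a group is given as a bound against 3 counts per library. The script was tested on simulated data. Alternatives were other scalings, filters, DESeq2 1.42.0, limma 3.58.1, a fit over all 12 libraries, a test against a 1.5-fold change, the replicate block and each library left out. Members and gene lists were chosen with earlier results of these data known. Named genes are Kat2a and Kat2b, fixed defining members, and in each list up to 8 called and up to 4 uncalled members by mean CPM. To these were added called genes with at least 20 CPM in the higher group and the largest rises, falls or CPM gained or lost. From the added genes, those on the interferon-stimulated or proliferation lists, those with overlapping values and symbols of the Gm, Rik or clone kind were left out. The interferon-stimulated genes left out include rises as large as some of those shown. Genes whose names only look like a family's were left out of it.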

Additional observations from a re-analysis of the deposited data

How the results depend on the processing

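The 5421 calls became 5416 with DESeq2-style size factors, 5074 without TMM, 6462 with no filter, 4551 at a minimum count of 50, 4143 with DESeq2 and 5348 with limma voom. They fell to 1766 with all 12 libraries in 1 fit (994 higher, 772 lower) and to 2388 tested against a 1.5-fold change (1326 higher, 1062 lower). Leaving out each library in turn gave 3615 to 6226 calls, lowest without control replicate 2 and highest without DKO replicate 2; the lone library left in a group is then assumed to vary like the other group. In none of these fits was a gene called in the opposite direction. With the replicate number as a block 5732 genes were called, but same-numbered libraries did not deviate together (pairing correlation 0.03). Of the 147 genes named as called, 8 did not pass the test against 1.5-fold: Kat2a, Nr1h4, Hnf4g, Fh1, Muc2, Hspa5, Cd3e and Hes1. Among genes named as not called, Anpep, Vil1, Slc6a19 and Epcam passed without TMM (adjusted p = 0.0370, 0.00422, 0.0176 and 0.00983), and Vil1, Slc6a19, Ppard and Epcam passed without DKO replicate 1. Without DKO replicate 2, Anpep, Vil1, Cyp3a13, Tff3, Krt20 and Lamp1 passed.

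Of the 72 list medians, 4 changed sign in 6 fits, and so did 9 uncalled genes in some fit; the cause was not tested. Over the fits that leave out 1 library, the median of ileal bile acid and cubilin uptake ran from -0.0061 to 0.74, of clock genes from -0.33 to 0.016, of regulated cell death genes from -0.017 to 0.18 and of sulfotransferases from -0.28 to 0.084. Regulated cell death genes were also at -0.0030 without TMM. Over the same fits the log2 fold changes of uncalled genes ran from -0.21 to 0.46 for Mgam, from -0.27 to 0.078 for Alpi, from -0.17 to 0.43 for Slc5a1, from -0.32 to 0.30 for Apob. The others ran from -0.23 to 0.41 for Apoa4, from -0.074 to 0.22 for Hnf4a, from -0.13 to 0.34 for Chga, from -0.26 to 0.0013 for Axin2, from -0.093 to 0.037 for H3f3b. Without TMM, Apob, Apoa4, Hnf4a and Chga turned to -0.13, -0.027, -0.060 and -0.021. Apob was also at -0.0085 with limma voom and -0.012 with the replicate block. Libraries of 10307281 to 11474107 counts leave genes under about 10 counts untested.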

Other observations

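Further gene groups moved that no comparison above covers. Of 21 immediate early genes, induced within minutes by growth signals or stress, 13 rose and 1 fell (median log2 fold change 0.74); the MAP kinase phosphatase Dusp6 had 100.3 and 64.1 CPM in control and 331 and 286 in DKO (1.91 ± 0.22, adjusted p = 7.26e-04). Of 26 lysosome and autophagy genes 10 rose and 2 fell. The protease Ctsh rose from 38.4 and 37.1 to 138 and 91.2 CPM and the glucuronidase Gusb from 21.4 and 19.9 to 58.4 and 53.4 CPM (1.60 ± 0.20 and 1.44 ± 0.13, adjusted p = 0.00103 and 2.95e-04), while Lamp1, a membrane protein of lysosomes, did not pass at 311 and 331 CPM in control and 429.9 and 352 in DKO (adjusted p = 0.164). Of 22 integrins 7 rose and 4 fell, the latter near the share of all genes that fell. Itgb6, an epithelial integrin that activates TGF-beta, rose from 27.2 and 23.8 to 162 and 83.2 CPM and Itgav, its partner, from 41.6 and 39.5 to 128 and 80.1 CPM (2.27 ± 0.30 and 1.36 ± 0.21, adjusted p = 0.00127 and 0.00286). Of 31 interleukins and their receptors 14 rose and 3 fell; Il4ra, the receptor chain of the type 2 cytokines, rose from 76.2 and 60.2 to 229 and 170.3 CPM and Il18bp, which binds interleukin 18, from 27.5 and 16.7 to 194 and 158 CPM (1.55 ± 0.19 and 2.999 ± 0.24, adjusted p = 9.05e-04 and 2.15e-04).

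Of 17 clock genes 4 rose and 5 fell, where 18.8% of all genes tested rose and 17.1% fell. Per1, a repressor of the clock that glucocorticoids also induce, had 17.1 and 24.03 CPM in control and 120.0 and 56.8 in DKO, and the output factor Dbp had 20.4 and 37.2 CPM in control and 6.16 and 5.37 in DKO. Their log2 fold changes were 2.10 ± 0.34 and -2.32 ± 0.30 (adjusted p = 0.00329 and 0.00129), and the time of day at which tissue was taken is not given in the sources used here. Of 17 Notch pathway genes 4 rose and 5 fell; the target Hes1 fell from 29.02 and 24.6 to 13.01 and 14.96 CPM and the ligand Jag2 rose from 1.02 and 1.76 to 10.8 and 7.92 CPM (-0.94 ± 0.16 and 2.73 ± 0.33, adjusted p = 0.00444 and 9.98e-04). Single sulfotransferases moved in opposite directions, and others of the family tested were not called. Sult6b2 rose from 161 and 178 to 856 and 842 CPM (2.32 ± 0.14, adjusted p = 7.97e-05). Sult1b1 fell from 248 and 252 to 134 and 128 CPM (-0.93 ± 0.12, adjusted p = 0.00117). Among genes adjacent on a chromosome, runs called in 1 direction were also found outside the chromosome 15 stretch. The longest that fell held 11 genes each. They were cluster histones on chromosome 13 (23531050 to 23577011) and Ugt1a genes with neighbours on chromosome 1 (88070800 to 88702221). On chromosome 2, 8 neighbours from Duox2 through Duoxa2, Duoxa1, Duox1, Shf and Slc28a2 were higher (122279247 to 122641191, GRCm38). On chromosome 5 the EGF receptor ligands Ereg, Areg and Btc with Parm1 were higher (91074622 to 91626894). The genes of these runs were chosen after their values were seen. A count of promoter motifs in the genes called higher or lower was treated as void, since promoters were missing for part of each group. A RefSeq promoter was matched to 80.3% of the coding genes tested, 79.4% of those called higher and 79.7% of those called lower. Coverage thus hardly differed between these groups.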
